A study of Mus musculus with 6 samples.

Results

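Kruppel-like factor genes were followed in mouse pancreatic tumours with and without Msi1: Klf2, Klf3, Klf4, Klf5, Klf6, Klf9, Klf10, Klf13 and Klf15. They were taken as a named list of 9 genes out of 18193 genes that the array measured with a probe set of 1 gene symbol. The list did not use the difference between the genotypes. The 9 genes had 30 of the 45037 probe sets tested, and each gene is described by its probe set of highest mean unless another is named.

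The study compared 3 tumour cell samples of genotype Msi1 -/-, called Msi1 KO here, with 3 samples labelled wt. The product of Msi1 is Musashi, which binds messenger RNA and is found in progenitor cells. All 6 samples came from C57BL/6 mice at 11 weeks of age. Both groups carried tumour alleles, among them p53f/f and ptf1a-Cre as the labels write them, so wt stands for an intact Msi1 and not for a normal pancreas. A Cre at the ptf1a locus acts in the pancreatic lineage, while neighbouring stroma and immune cells keep alleles such as p53f/f unrecombined. The genotype as written, Msi1 -/-, does not tell whether the loss of Msi1 depends on the Cre. Each RNA sample was hybridised to 1 Affymetrix array, and the number of arrays limits the precision. The labels name each sample as a mouse with its own number but do not describe how animals were sampled, so each p-value reflects sample-to-sample spread that may be technical.

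Kruppel-like factors are transcription factors with a shared set of zinc fingers at the carboxyl end that bind GC-rich and CACCC sequences. The parts outside the zinc fingers differ, and they recruit activators or repressors such as the CtBP proteins. Klf2, Klf4, Klf6 and Klf10 respond early to growth factors, shear stress or TGF-beta, whereas Klf9 and Klf15 are known as hormone-responsive genes. In mouse pancreas, Klf4 and Klf5 have been tied to the change of acinar cells into duct-like cells.

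Several facts of the whole series bear on the 9 genes. The brightest Msi1 probe set read 141, 168 and 127 on Msi1 KO arrays 1, 2 and 3, against 144, 150.4 and 257 on wt arrays 1, 2 and 3. The place of these probes with respect to the deletion was not known here, so the readings do not check the genotypes. Median intensities lay between 159.3 and 164.4 on the Msi1 KO arrays and between 161.6 and 164.2 on the wt arrays. Array background, set by 80 odorant, vomeronasal and trace amine receptor probe sets (their 95th percentile), lay between 163.2 and 191.8 on Msi1 KO arrays and between 163.02 and 167.1 on wt arrays. The Msi1 readings lay above the background of their own array only on Msi1 KO array 2 and wt array 3. On wt array 3, Xist read 6226 and the Y-linked gene Eif2s3y read 88.2, while the other 5 arrays had Xist between 131 and 387 and Eif2s3y between 716 and 944. The labelled tumour cells were checked against 9 measured ductal and epithelial markers, and all 9 lay above background on all 6 arrays. So did all 10 acinar, 10 endothelial, 8 fibroblast and 8 macrophage markers that were measured, and the samples thus held RNA of several cell types. In such bulk RNA, fewer cells of a type and less RNA per cell cannot be told apart.

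The comparison asked whether these factors differ between tumours with and without Msi1, and 0 of the 9 genes passed the test. Of all 45037 probe sets, 0 (0%) had an adjusted p under 0.05 (limma, Benjamini-Hochberg), and 1355 (3.01%) had an unadjusted p under 0.05. Means were higher in Msi1 KO for 4 of the 9 genes (Klf2, Klf4, Klf5 and Klf10) and lower for 5 (Klf3, Klf6, Klf9, Klf13 and Klf15), against 50.2% and 49.8% of all genes. The median difference was -0.05 on the log2 scale for the 9 genes and 0.00059 for all genes. At the probe set of highest mean, the groups overlapped for all 9 genes, while 8.28% of all genes had no overlap. Among the 30 probe sets of the 9 genes, 2 (6.67%) had no overlap, against 7.79% of all probe sets. Both belonged to Klf6 and were lower in Msi1 KO, as were 3.71% of all probe sets, while 0 of the 30 lay wholly higher, against 4.08% of all. The adjusted p was 0.9997 for each of the 30 probe sets (limma).

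**Figure D1:**
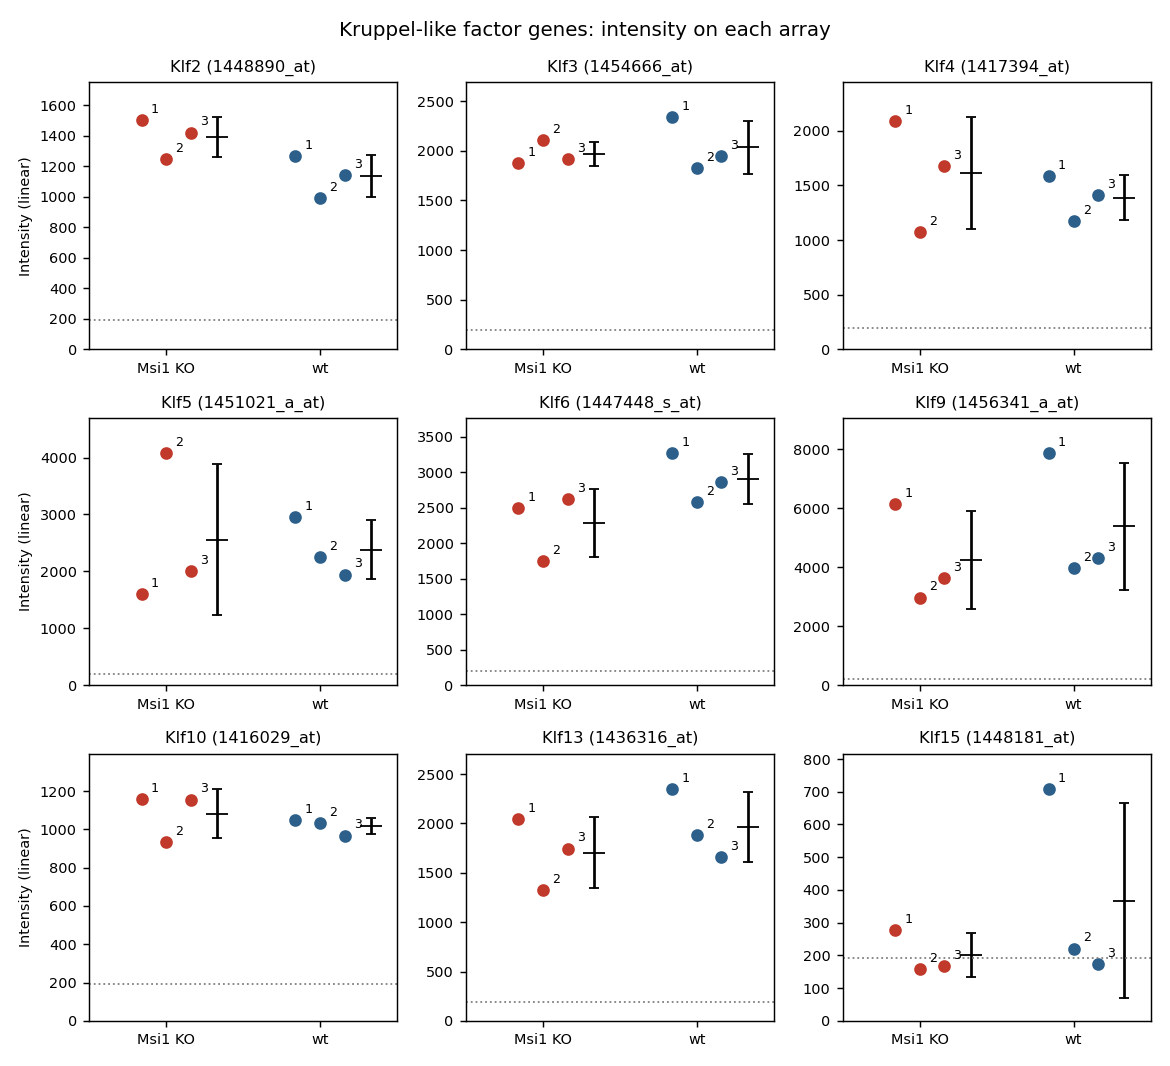
Intensity of each gene on each array (y axis, linear, from 0) for Msi1 KO (red, left) and wt (blue, right). Digits are replicate numbers, bars are mean and SD of 3 arrays, and the dotted line is the highest array background, 191.8. Klf5, Klf9 and Klf15 spread most, through Msi1 KO array 2 for Klf5 and wt array 1 for Klf9 and Klf15.

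Klf2 maintains quiescence in endothelial cells and T cells. It read 1506, 1250.1 and 1422 on Msi1 KO arrays 1, 2 and 3, against 1268, 993 and 1144 on wt arrays 1, 2 and 3. Msi1 KO arrays 1 and 3 lay above every wt array, and the groups overlapped because Msi1 KO array 2 lay just below wt array 1. The means were 1393 ± 131 in Msi1 KO and 1135 ± 138 in wt (SD, n = 3 each), a log2 difference of 0.30 ± 0.13 (SE). The ratio was 1.23, with a 95% interval of 0.992 to 1.52 (limma, unadjusted p = 0.0569; exact two-sided permutation p = 0.2, where the smallest possible is 0.1). Leaving out single arrays gave log2 differences between 0.21 and 0.38. Endothelial markers moved in the same direction: 9 of 10 had higher means in Msi1 KO. Their summed intensity was 6793 to 9808 in Msi1 KO and 6030.3 to 8332 in wt. Their score, the mean of mean-centred log2 values, was highest on Msi1 KO array 1, as Klf2 was. It was lowest on wt array 1 (-0.32), and it was 0.15 on wt array 2, the lowest array for Klf2. For lymphocytes of the T and NK lineages, 8 of 8 markers were higher, with sums of 1548 to 2127 in Msi1 KO and 1248 to 1512 in wt. Of these 8, 7 were highest on Msi1 KO array 2, the lowest Msi1 KO array for Klf2. All 10 endothelial markers lay above background on all 6 arrays. Of the T and NK markers only 2 of 8 did, and Cd247 lay above it on none. The part of these cell types in the Klf2 values was not tested. The single Klf2 probe set leaves no second measurement of the transcript.

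Klf4 encodes a factor of epithelial differentiation and one of the classic reprogramming factors. It read 2091, 1075 and 1679.9 on Msi1 KO arrays 1, 2 and 3, against 1583, 1171 and 1412 on wt arrays 1, 2 and 3. The highest and the lowest array were both Msi1 KO, so the wt range lay inside the Msi1 KO range. The log2 difference was 0.18 ± 0.24 (SE), a ratio of 1.13 with a 95% interval of 0.760 to 1.68. Its sign rested on Msi1 KO array 1, since without that array the difference was -0.04. The second Klf4 probe set, 1417395_at, had the same ends, with 1737 on Msi1 KO array 1 and 825 on Msi1 KO array 2. Macrophage markers had ends like these, with 7 of 8 highest on Msi1 KO array 1 and 6 of 8 lowest on Msi1 KO array 2. The shares of all genes were 25.4% and 18.0%. For fibroblast markers the counts were 6 and 4 of 8, and for endothelial markers 7 and 0 of 10. For ductal and epithelial markers they were 0 and 2 of 9. The macrophage sums ran from 30794 to 52401 in Msi1 KO and from 36269 to 43467.5 in wt. All 8 macrophage markers lay above background on all 6 arrays. The part of these cell types in the Klf4 values was not tested.

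Klf5 promotes growth of epithelial progenitor cells. It read 1594, 4079.7 and 2001 on Msi1 KO arrays 1, 2 and 3, against 2947, 2242 and 1943 on wt arrays 1, 2 and 3. Again both ends were Msi1 KO arrays, but in the reverse order to Klf4. The means nearly coincided, at 2558 ± 1333 in Msi1 KO and 2377 ± 515 in wt (SD, n = 3 each). The log2 difference of 0.01 ± 0.34 (SE) has a 95% interval of -0.78 to 0.79, so neither a lower nor a higher level in Msi1 KO can be told from these arrays. It was 0.29 without Msi1 KO array 1 and -0.39 without Msi1 KO array 2. Probe set 1451739_at repeated the pattern, at 177 on Msi1 KO array 1 and 441 on Msi1 KO array 2. Probe set 1430255_at stayed between 272 and 284 in Msi1 KO and between 277 and 299 in wt. Msi1 KO array 2 was also the highest array for 5 of 5 B cell markers, 7 of 8 T and NK markers and 19.9% of all genes. The B cell sums were 1030.4 to 2593 in Msi1 KO and 839 to 1484 in wt. The same array was highest for 4 of 5 islet markers, with sums of 5087 to 12951 in Msi1 KO and 6253 to 7607 in wt. It was highest for 1 of 9 ductal and epithelial markers. Their score ran from -0.19 on Msi1 KO array 2 to 0.26 on Msi1 KO array 3, and from -0.08 to 0.12 in wt. On wt array 1, the second highest array for Klf5, B cell and T and NK scores were lowest, at -0.69 and -0.35. The islet score there was 0.28. Only 1 of the 5 B cell markers lay above background on all 6 arrays, and 4 of the 5 islet markers did. The part of these cell types in the Klf5 values was not tested.

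Klf6, a widely expressed early-response gene and tumour suppressor, had lower means in Msi1 KO at 5 of 5 probe sets. The brightest, 1447448_s_at, read 2489.8, 1740.3 and 2621 on Msi1 KO arrays 1, 2 and 3, against 3269, 2576 and 2858 on wt arrays 1, 2 and 3. Only the pair of Msi1 KO array 3 and wt array 2 overlapped. The log2 difference was -0.36 ± 0.18 (SE), a ratio of 0.779 with a 95% interval of 0.586 to 1.03. It was -0.18 without Msi1 KO array 2, the lowest array.

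A dimmer probe set of Klf6, 1418280_at, separated the groups. It read 393, 342 and 438 on Msi1 KO arrays 1, 2 and 3, against 568, 586 and 499 on wt arrays 1, 2 and 3. All 3 Msi1 KO arrays lay below all 3 wt arrays, and the log2 difference was -0.50 ± 0.12 (SE), a ratio of 0.709 with a 95% interval of 0.579 to 0.868. The unadjusted p was 0.00474 and the adjusted p 0.9997 (limma), with an exact two-sided permutation p of 0.1, the smallest that 3 against 3 arrays allow. Leaving out single arrays gave -0.58 to -0.40. This probe set was the 1 of 30 with an unadjusted p under 0.05, 3.33%, against 3.01% of all probe sets.

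The second Klf6 probe set without overlap, 1427742_a_at, read 1728, 1221 and 1704 on Msi1 KO arrays 1, 2 and 3, against 2232, 1858 and 1803 on wt arrays 1, 2 and 3. Its log2 difference was -0.35 ± 0.17 (SE). Probe sets 1433508_at and 1459718_x_at differed by -0.25 ± 0.14 and -0.11 ± 0.11 (SE), with overlap. In Affymetrix names, the suffix x marks probes that may bind other transcripts and the suffix s marks probes shared between transcripts.

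**Figure D2:**
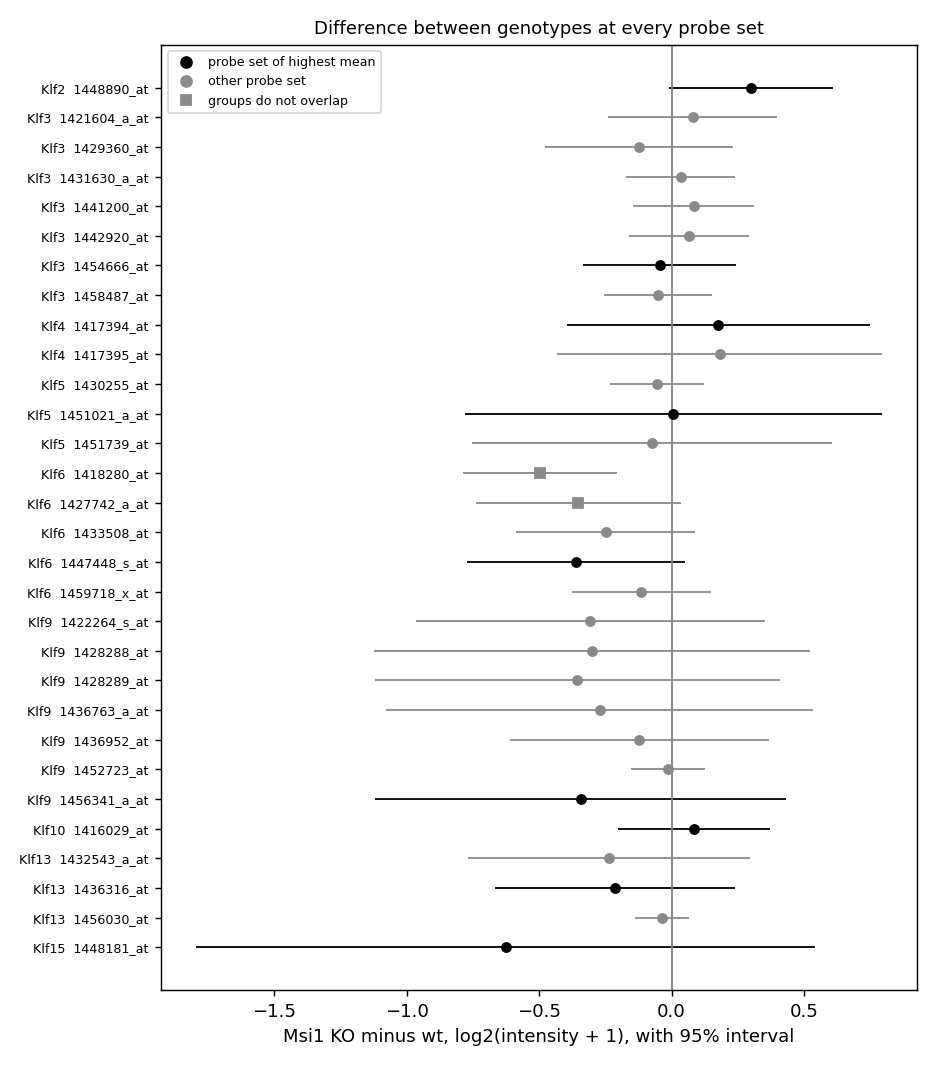
Log2 difference, Msi1 KO minus wt, with its 95% interval (x axis) at each of the 30 probe sets (y axis). All 5 Klf6 points lie left of 0, and 1418280_at is the probe set whose interval does not reach 0.

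Klf10, first described as a gene induced by TGF-beta, and Klf3, a repressor that works through CtBP, varied least. Klf10 read 1158, 933 and 1156 on Msi1 KO arrays 1, 2 and 3, against 1050.1, 1032 and 968 on wt arrays 1, 2 and 3. The highest array was 1.24 times the lowest, and the log2 difference was 0.08 ± 0.12 (SE), with a 95% interval of -0.20 to 0.37. Klf3 read 1878, 2104 and 1914 on Msi1 KO arrays 1, 2 and 3, against 2339.7, 1827 and 1944 on wt arrays 1, 2 and 3. The highest of these was wt array 1, without which the log2 difference of -0.05 ± 0.12 (SE) became 0.06. Of the 7 Klf3 probe sets, 4 had higher and 3 lower means in Msi1 KO, with differences between -0.12 and 0.08.

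Klf9, Klf13 and Klf15 had the same arrays at 3 ranks, and these did not follow the genotype. Each was highest on wt array 1, next on Msi1 KO array 1 and lowest on Msi1 KO array 2. The order of the remaining 3 arrays differed between the genes. This placing was chosen after the values were seen, and 2.23% of all genes had it. Klf9 is a hormone-responsive factor, Klf13 is known from T cells as a regulator of the chemokine gene Ccl5, and Klf15 controls amino acid and glucose metabolism in liver and muscle. The promoters of these genes are shown because the genes share this placing. The sequences are from RefSeq on GRCm38.p6 and cover 250 bases before to 50 bases after the annotated start site, written 5′ to 3′ on the strand of the gene. Capitals mark matches on either strand to the Kruppel-like factor core (CACCC) and to the GC box (GGGCGG).
Klf9, chr19:23140976-23141275, plus strand: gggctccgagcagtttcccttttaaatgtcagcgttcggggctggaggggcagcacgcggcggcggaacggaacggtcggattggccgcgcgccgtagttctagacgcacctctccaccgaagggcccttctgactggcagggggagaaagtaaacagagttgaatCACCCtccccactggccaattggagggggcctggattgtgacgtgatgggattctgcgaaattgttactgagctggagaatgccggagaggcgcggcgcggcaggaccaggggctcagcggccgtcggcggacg
Klf15, chr6:90462326-90462625, plus strand: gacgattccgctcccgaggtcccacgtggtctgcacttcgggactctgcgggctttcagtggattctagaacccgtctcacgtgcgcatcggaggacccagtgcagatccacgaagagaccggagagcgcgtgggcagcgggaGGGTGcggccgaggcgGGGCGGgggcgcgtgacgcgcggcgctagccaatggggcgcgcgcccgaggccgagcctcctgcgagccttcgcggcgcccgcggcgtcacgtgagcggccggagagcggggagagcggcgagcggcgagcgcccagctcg
Klf13, chr7:63938866-63939165, minus strand: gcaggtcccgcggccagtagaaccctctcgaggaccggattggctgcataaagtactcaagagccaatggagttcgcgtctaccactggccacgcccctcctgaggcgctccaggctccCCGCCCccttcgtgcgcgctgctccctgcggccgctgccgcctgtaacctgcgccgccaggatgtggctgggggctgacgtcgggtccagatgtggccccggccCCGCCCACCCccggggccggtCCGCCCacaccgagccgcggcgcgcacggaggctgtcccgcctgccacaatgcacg

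Of the 9 genes, 7 had a promoter window in the RefSeq table, and Klf5 and Klf10 did not match. Their GC content lay between 63.0% and 76.7%, and the median of 32851 windows of this length was 52.7%. The Kruppel-like factor core was found in 5 of the 7 windows and in 57.5% of all windows. The GC box was found in 6 of 7 and in 35.7% of all windows, and it overlapped a core match at 2 places. The Klf3 window held the most, with 5 core and 6 GC box matches, while the Klf9 window held 1 core and 0 GC box matches. The CCAAT box was present in 4 of 7 windows, against 37.4% of all. TGACG, a part of the cyclic AMP response element, was present in 6 of 7, against 20.8% of all. The TATA box, searched as TATAAA, was found in 0 of 7, against 13.6% of all. TGTTCT, a part of the steroid hormone receptor site, was likewise found in 0 of 7, against 19.0% of all. The full site was not searched. All motifs were searched on both strands, and these matches describe the letters and not binding.

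**Figure D3:**
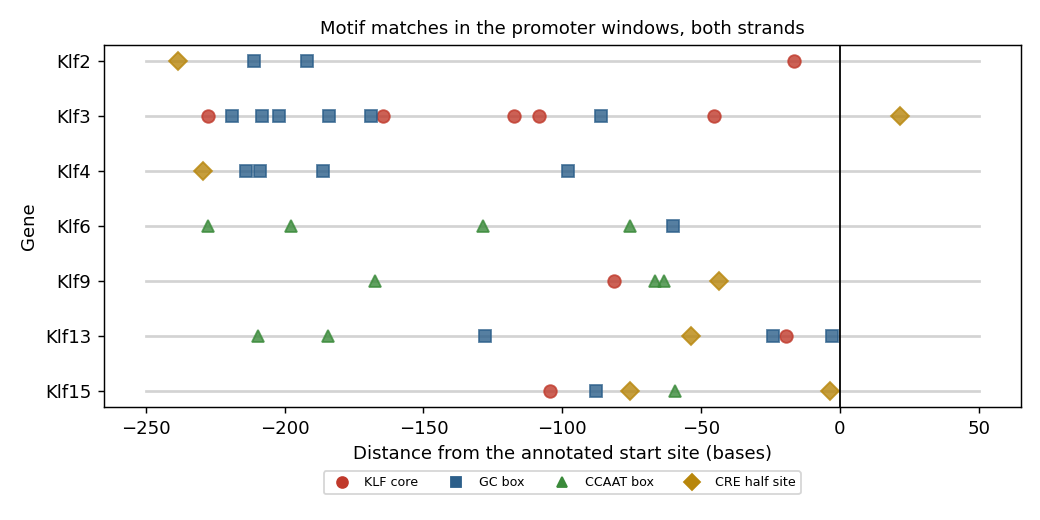
Motif matches in the 7 promoter windows, by distance of the match's centre from the annotated start site in bases (x axis) and by gene (y axis). Circles are the Kruppel-like factor core, squares the GC box and triangles the CCAAT box. Diamonds are TGACG, a part of the cyclic AMP response element. Klf3 holds the most core and GC box matches.

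Klf9 read 6133, 2967 and 3622 on Msi1 KO arrays 1, 2 and 3, against 7868, 3973 and 4301 on wt arrays 1, 2 and 3. Replicate 1 was the high array in both groups, and the groups overlapped. Means were 4240.2 ± 1671 in Msi1 KO and 5381 ± 2160.3 in wt (SD, n = 3 each), a log2 difference of -0.34 ± 0.33 (SE) with a 95% interval of -1.12 to 0.43. Without wt array 1 the difference was -0.03, and without Msi1 KO array 1 it was -0.64. All 7 Klf9 probe sets had lower means in Msi1 KO, with differences between -0.36 and -0.01. At 6 of them wt array 1 was the highest and Msi1 KO array 2 the lowest. The exception, 1452723_at, stayed between 176 and 186 on all 6 arrays, close to background.

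Klf15 read 277, 158 and 168 on Msi1 KO arrays 1, 2 and 3, against 709, 221 and 173 on wt arrays 1, 2 and 3. Wt array 1 stood alone, and Msi1 KO array 2 lay below its own background. Means were 201 ± 66.0 in Msi1 KO and 368 ± 297 in wt (SD, n = 3 each). The log2 difference of -0.63 ± 0.50 (SE) included that reading below background, and it was -0.01 without wt array 1. Its 95% interval ran from -1.80 to 0.54. Adipocytes also express Klf15, and 5 measured adipocyte markers summed to 1850.3 to 2606 in Msi1 KO and 2123 to 5280.5 in wt. Their highest score was on wt array 2 and their lowest on wt array 1. Only 2 of the 5 lay above background on all 6 arrays, Lep lay above it on none, and their part in the Klf15 values was not tested.

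Klf13 read 2045, 1323 and 1745 on Msi1 KO arrays 1, 2 and 3, against 2351, 1884 and 1659.8 on wt arrays 1, 2 and 3. Msi1 KO arrays 1 and 3 lay inside the wt range and Msi1 KO array 2 below it. The log2 difference was -0.21 ± 0.19 (SE), with a 95% interval of -0.67 to 0.24, and it was -0.08 without wt array 1 and -0.04 without Msi1 KO array 2. Probe set 1432543_a_at gave -0.24 ± 0.23 (SE), and 1456030_at was below background on all 6 arrays.

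The 9 genes differed widely in their spread over the arrays. The SD of log2 values over the 6 arrays was 0.82 for Klf15, 0.52 for Klf9 and 0.49 for Klf5, which placed them at the 99.3, 97.7 and 97.3 percentiles of all genes. For Klf10 and Klf3 it was 0.13 each, at the 57.8 and 59.1 percentiles. Among genes above background on all 6 arrays, Klf10 and Klf3 lay at the 41.9 and 43.8 percentiles, and Klf9 and Klf5 at 97.2 and 96.6. Msi1 KO array 2 was the lowest array for 6 of the 9 genes (Klf4, Klf6, Klf9, Klf10, Klf13 and Klf15) and the highest for Klf5. It was the lowest for 18.0% of all genes and the highest for 19.9%. Wt array 1 was the highest for 5 (Klf3, Klf6, Klf9, Klf13 and Klf15) and for 22.6% of all genes. Msi1 KO array 1 was the highest for Klf2, Klf4 and Klf10, and for 25.4% of all genes.

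The likeness of patterns was measured as the root mean square difference of mean-centred log2 values over the 6 arrays. Of the 36 pairs among the 9 genes, Klf2 and Klf10 were nearest, at 0.154, followed by Klf6 and Klf13, at 0.157. Klf5 and Klf15 were farthest apart, at 0.833. Klf9 and Klf13, at 0.260, ranked 10th, Klf9 and Klf15, at 0.372, ranked 19th, and Klf13 and Klf15, at 0.545, ranked 26th. By its construction this measure places genes of little spread, such as Klf2 and Klf10, near each other. Klf4 and Klf5, at 0.711, were the 32nd of the 36 pairs.

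For the 3 genes of largest spread, the nearest genes on the array were sought among genes above background on all arrays whose own SD was at least 0.5 times that of the gene in question. Nearest to Klf9 were Slc10a6, a steroid sulphate transporter, at 0.068, Tsc22d3, a leucine zipper protein, at 0.070 and Trnp1, a nuclear protein of neural progenitors, at 0.085, out of 1813 genes compared. Tsc22d3 read 2949.8, 1414 and 1745 on Msi1 KO arrays 1, 2 and 3, against 3894, 2139.8 and 2275 on wt arrays 1, 2 and 3, which is the order of Klf9 on all 6 arrays. Nearest to Klf15, out of 613 genes, were Zbtb16, a zinc finger repressor, at 0.084, the oxidase gene Nox4 at 0.180 and the scavenger receptor gene Scara5 at 0.204. Zbtb16 read 426, 233 and 232 on Msi1 KO arrays 1, 2 and 3, against 964, 300.5 and 223 on wt arrays 1, 2 and 3, and wt array 1 stood apart as it did for Klf15. Nearest to Klf5, out of 2076 genes, were Lrrc26, a potassium channel subunit, at 0.088, 2210407C18Rik at 0.102 and Gal3st2, a sulphotransferase gene, at 0.105. Lrrc26 read 247, 773 and 363 on Msi1 KO arrays 1, 2 and 3, against 525, 398 and 341 on wt arrays 1, 2 and 3.

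**Figure D4:**
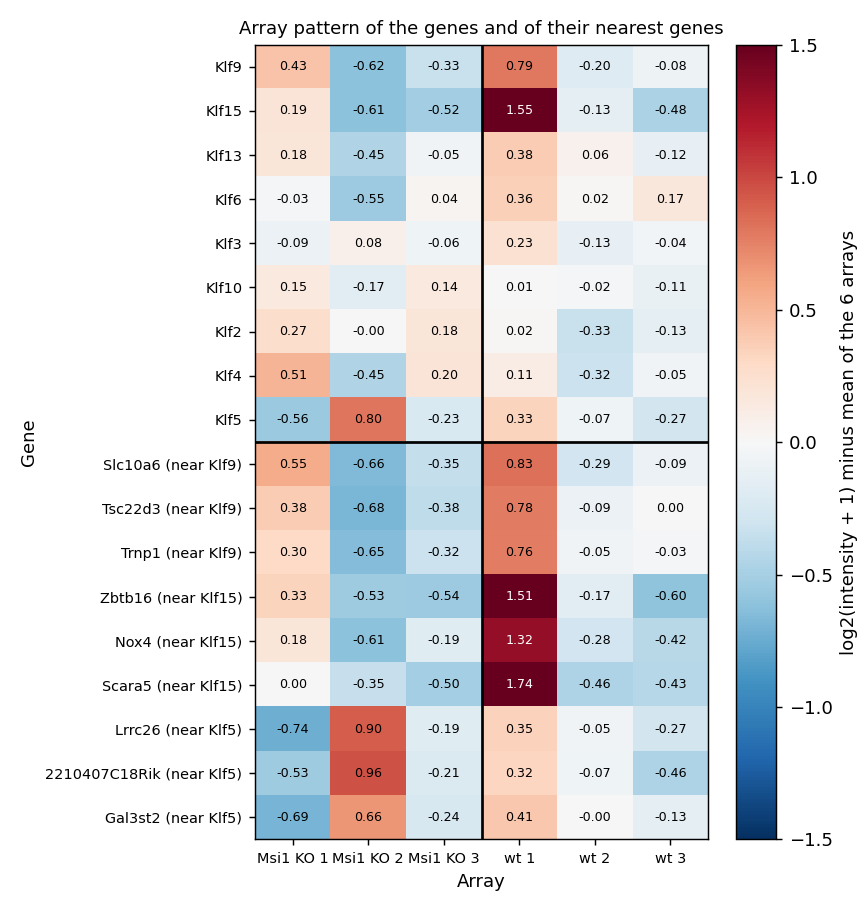
Log2(intensity + 1) minus the mean of the 6 arrays (colour and printed value) for the 9 genes above the line and the nearest genes of Klf9, Klf15 and Klf5 below it (y axis), by array (x axis). Wt array 1 is highest for Klf9, Klf15 and the genes near them. Msi1 KO array 2 is lowest for Klf9, Klf15, the genes near Klf9 and Nox4, but not for Zbtb16 and Scara5. Klf5 and its nearest genes are highest on Msi1 KO array 2.

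Other genes of the family and its surroundings had no call either, and the lists below were described by counts alone. Of 14 measured further Klf and Sp genes, 0 had an unadjusted p under 0.05, against 3.45% of all genes. Means were lower in Msi1 KO for 10 and higher for 4, with a median log2 difference of -0.04. The smallest p-values belonged to Klf12, a repressor that binds CtBP, and Klf7, a close relative of Klf6 known from neurons. Klf7 read 626, 631 and 722 on Msi1 KO arrays 1, 2 and 3, against 824, 736 and 776 on wt arrays 1, 2 and 3, a log2 difference of -0.24 ± 0.11 (SE) without overlap. Klf12 differed by -0.33 ± 0.15 (SE), also without overlap, but it lay near background and the difference was -0.15 without Msi1 KO array 2.

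Of 20 cofactors, modifying enzymes and upstream factors, 7 had higher and 13 lower means, with a median of -0.08. Parp1, a poly-ADP-ribose polymerase, was the 1 of 20 with an unadjusted p under 0.05, against 3.45% of all genes. It read 595, 686 and 533 on Msi1 KO arrays 1, 2 and 3, against 440.3, 479.8 and 513 on wt arrays 1, 2 and 3. The log2 difference was 0.33 ± 0.13 (SE; limma unadjusted p = 0.0308, adjusted p = 0.9997). With all probe sets of Parp1 averaged it was 0.19 ± 0.11 (SE; limma unadjusted p = 0.1255). Ctbp1 and Ctbp2, the corepressors that bind Klf3, differed by 0.0001 and -0.11.

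Of 24 measured textbook targets of these factors, 13 had higher and 11 lower means, with a median of 0.03. Plau, the urokinase gene, had the smallest p of the list. It read 304, 199 and 278 on Msi1 KO arrays 1, 2 and 3, against 354, 420.2 and 378 on wt arrays 1, 2 and 3, a log2 difference of -0.58 ± 0.16 (SE; limma unadjusted p = 0.0087, adjusted p = 0.9997). The endothelial Klf2 targets Thbd, S1pr1 and Nos3 differed by 0.19, 0.18 and -0.01, beside 0.30 for Klf2. Cdkn1a, a cell cycle inhibitor induced by Klf4 and Klf6, read 1569, 900.3 and 1859 on Msi1 KO arrays 1, 2 and 3, against 1659.9, 1788 and 2165 on wt arrays 1, 2 and 3, and like these genes it was lowest on Msi1 KO array 2.

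Immediate early genes, which share inducers with Klf2, Klf4, Klf6 and Klf10, had lower means in Msi1 KO for 13 of 22, with a median of -0.08. Fosl2, an AP-1 subunit, was the 1 of 22 with an unadjusted p under 0.05, against 3.45% of all genes. It read 1546, 1536 and 1461 on Msi1 KO arrays 1, 2 and 3, against 1869, 1781 and 1824 on wt arrays 1, 2 and 3. The log2 difference was -0.27 ± 0.09 (SE; limma unadjusted p = 0.0217, adjusted p = 0.9997). With all probe sets of Fosl2 averaged it was -0.15 ± 0.08 (SE; limma unadjusted p = 0.0856). Egr1 and Fos were named as examples after their values were seen. They differed by -0.44 ± 0.23 and -0.29 ± 0.14 (SE), beside -0.36 ± 0.18 for Klf6. Means were higher in Msi1 KO for 9 of the 22. Summed intensities of the list were 24868 to 28427 in Msi1 KO and 28406 to 32659 in wt, and their part in the Klf6 values was not tested. RNA quality was read from the 3′ to 5′ ratio of Gapdh controls, which was 1.38, 1.60 and 1.61 on Msi1 KO arrays 1, 2 and 3, against 1.55, 1.86 and 1.67 on wt arrays 1, 2 and 3. Acinar markers had lower means for 10 of 10, with a median log2 difference of -1.51 and 9 of 10 at an unadjusted p under 0.05 (limma), against 3.45% of all genes. None passed adjustment. Their sums were 14109 to 41857 in Msi1 KO and 42735 to 68297 in wt, a difference that accompanies every comparison above and whose part was not tested.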

How the data were processed

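Per the labels' protocols, RNA of 6 samples (6 ug each) was put on 1 Affymetrix mouse array apiece. The intensity values are linear and were deposited by the authors as 1 table made with GCRMA, per the submitters' processing notes. GCRMA corrects background by probe sequence, normalizes quantiles and summarises probe sets. Its version, and any later rescaling, are not given in the sources used here. The table held 45101 probe sets, of which 64 controls were left out. A platform annotation gave 34945 probe sets 1 symbol, 932 several and 9160 none, and symbols were updated by Entrez ID through a RefSeq table.

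Log2(intensity + 1) was tested by limma (version 3.58.1, under R 4.3.3; lmFit, then eBayes with an intensity trend), genotype as the only term, and adjusted over all 45037 probe sets. SE is limma's moderated SE. The fit was tested on simulated data. Exact permutation tests covered all 20 assignments of arrays. The adjusted threshold was 0.05. The genes and lists, and the rule for named genes, were chosen with earlier results of these data known. The rule named all 9 genes, the 3 nearest genes for each of the 3 genes of largest spread, and, in the 4 lists of family genes, cofactors, targets and immediate early genes, the members with an unadjusted p under 0.05 or else the 2 smallest. Cell type marker lists were given by counts. Ctbp1, Ctbp2, Thbd, S1pr1, Nos3, Cdkn1a, Egr1 and Fos were named as examples after their values were seen. The closing section gives the alternatives: filters, prior variance, normalization, array weights, replicate block, each array left out, pseudocount 16, the threshold and the choice of probe set. A further allele that all samples share is not reported here.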

Additional observations from a re-analysis of the deposited data

How the results depend on the processing

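With 3 arrays a group, only large differences could be called, and Klf15 and Klf12 lay near background, which limits their values. No alternative gave any of the 9 genes an adjusted p under 0.05 (limma, Benjamini-Hochberg; lowest 0.817). Direction reversed for Klf3 with array weights (0.026) and with all probe sets of the gene averaged (0.0062), and for Klf5 with quantile normalization (-0.0071) and with averaging (-0.041). Fits without 1 array each gave log2 differences of -0.12 to 0.059 for Klf3, -0.036 to 0.44 for Klf4 and -0.39 to 0.29 for Klf5, with reversals. Klf2, Klf6, Klf9, Klf10, Klf13 and Klf15 kept their sign in every fit run. Klf15 was -1.02 to -0.01, Klf9 -0.64 to -0.03 and Klf13 -0.36 to -0.04 in those fits. The number of the 9 genes higher in Msi1 KO was 3 to 5 over all settings. Probe sets with an unadjusted p under 0.05, 1355 in the report, numbered 546 with a filter at a mean log2 of 8, 2153 with array weights, and 886 (without wt array 1) to 2723 (without Msi1 KO array 1) with 1 array left out. Those with an adjusted p under 0.05 numbered 0 to 1 with 1 array left out. The 1, without Msi1 KO array 1, was Ighm, an immunoglobulin heavy chain gene. The filters at 7 and 8 used fewer probe sets, and the cause of the other changes was not tested. The labels number replicates alike in both groups. Deviations of same-numbered arrays correlated at 0.17, -0.09 and 0.28 for replicates 1, 2 and 3. Differently numbered arrays gave -0.26 to 0.06. Whether same-numbered arrays were paired is not given in the labels, and these values do not settle it. With the replicate number as a block, 2120 of the 45037 probe sets had an unadjusted p under 0.05. With the block, limma gave unadjusted p-values of 0.0251 for Klf2, 0.025 for Klf6, 0.00635 for Klf9 and 0.0496 for Klf15, each with an adjusted p of 0.9797. The same limma fit gave unadjusted p-values of 0.18 for Klf13, 0.24 for Klf4, 0.52 for Klf10, 0.74 for Klf3 and 0.98 for Klf5. Arrays 1 and 3 of both genotypes correlated best with their own number, and arrays 2 did not.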

Other observations

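The genes nearest to Klf9 and Klf15, Tsc22d3 and Zbtb16 among them, led to a list of 12 genes that textbooks name as induced by glucocorticoids: Fkbp5, Per1, Sgk1, Tsc22d3, Zbtb16, Pdk4, Mt1, Mt2, Errfi1, Ddit4, Cebpd and Dusp1. The list was chosen after those values were seen, so its counts are a description without a test. Tsc22d3 and Zbtb16 entered it through their likeness to Klf9 and Klf15 on these same arrays. Their own placing was thus fixed in advance and adds nothing to the counts. All 12 were highest on wt array 1, against 22.6% of all genes. Msi1 KO array 1 was the second highest for 11 of the 12, the exception being Errfi1, and these arrays were the top pair for 14.5% of all genes. Msi1 KO array 2 was the lowest array for 10 of the 12, the exceptions being Zbtb16 and Cebpd. The placing that Klf9, Klf13 and Klf15 share, with wt array 1 highest, Msi1 KO array 1 next and Msi1 KO array 2 lowest, was found for 9 of the 12, 75% of the list, and for 2.23% of all genes.

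Fkbp5, a cochaperone of steroid receptors, read 2986, 756 and 1886 on Msi1 KO arrays 1, 2 and 3, against 3761, 1781 and 1745 on wt arrays 1, 2 and 3. Sgk1, a kinase of ion transport, read 3712, 1506 and 2091 on Msi1 KO arrays 1, 2 and 3, against 5268, 2387 and 2275 on wt arrays 1, 2 and 3. Per1, a circadian clock gene, read 907, 609.6 and 686 on Msi1 KO arrays 1, 2 and 3, against 1109, 723 and 745 on wt arrays 1, 2 and 3. Array 1 of each genotype was thus high, and the groups overlapped for all 12. All 12 had lower means in Msi1 KO, with a median log2 difference of -0.39 and 0 with an unadjusted p under 0.05 (limma). Time of day, handling and hormone state of the animals are not given in the labels, and their part in these values was not tested.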
